A study of Mus musculus with 10 samples.

Results

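The genes examined here encode the enzymes that take glucose to pyruvate, exchange pyruvate with lactate, feed pyruvate into mitochondria and turn the tricarboxylic acid (TCA) cycle, and they were compared between the dorsal and ventral hippocampus in ribosome-bound RNA. The members were 44 gene symbols chosen by pathway, at a time when earlier results of these data were known, out of 54838 gene identifiers in the count files. They comprise 16 genes of glycolysis, 9 genes of lactate and pyruvate handling, 15 genes listed under the TCA cycle and 4 genes of pyruvate and malate side reactions. The TCA list holds the cytosolic forms Aco1, Idh1 and Mdh1 beside mitochondrial enzymes. All 44 were matched to an identifier and all 44 passed the expression filter, so that none was left out.

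The libraries were made from C57BL/6 mice of the genotype Drd2-Cre;Eef1a1LSL.eGFPL10a/+, named MC-TRAP in the labels, where MC stands for the mossy cell, a glutamatergic neuron of the dentate hilus. In these mice Cre expressed under Drd2 control switches on a ribosomal protein L10a fused to eGFP, and translating ribosome affinity purification (TRAP) recovers the RNA bound to the tagged ribosomes. All animals were males of about 10 weeks and both groups carried the same alleles and received no treatment, and the labels set the groups apart by the part of the hippocampus. There were 5 Dorsal and 5 Ventral libraries, each from the tissue of 5 pooled mice. The methods describe each hippocampus as divided into both parts, so that Dorsal and Ventral libraries come from the same animals, but the labels do not say which libraries share a pool, and the tests below treat the libraries as independent. Tissue at the place of the ventral subiculum was cut away at dissection. The Drd2-Cre line also marks some interneurons, and an affinity purification carries over RNA from unlabelled cells, so a difference in RNA per mossy cell and a difference in the mix of cells cannot be told apart.

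Glycolysis is a chain of cytosolic reactions that splits glucose into pyruvate and yields ATP and NADH. Pyruvate is either reduced to lactate by lactate dehydrogenase or enters the mitochondrion, where the pyruvate dehydrogenase complex makes the acetyl-CoA that the TCA cycle oxidizes. Many steps exist as several isoenzymes from separate genes, which differ between neurons and glia and in how they are regulated. In brain tissue, neurons rely strongly on oxidative metabolism, and astrocytes are well known for a high glycolytic rate and for releasing lactate.

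Counts on genes ranged from 11138676 to 20594364 per library, and 3 counts, the smallest level regarded as detectable, stood for 0.146 to 0.269 CPM, the counts scaled to a common library size, for counting error alone. The share of read pairs that fell on no gene was 21.8% to 33.9% in the Dorsal libraries and 11.6% to 19.3% in the Ventral libraries, which did not overlap (p = 0.00794 in a two-sided exact permutation test of the means, which cannot go lower with these numbers of libraries). Messenger RNAs encoded by the mitochondrial genome summed to 2692 to 3493 CPM in Dorsal and 437 to 1209 CPM in Ventral libraries. Dorsal 1 had the lowest no-gene share of its group, and it was the highest Dorsal library for 17 of the 44 members and the lowest for 11. Ventral 3 had the highest no-gene share of its group, and it was the highest Ventral library for 5 members and the lowest for 29. Of the mossy cell markers, Calb2, which encodes calretinin, averaged 65.2 CPM over the Dorsal and 616 CPM over the Ventral libraries, Gria2 1143 and 651 CPM, and Drd2 itself 28.1 and 20.7 CPM. Gad2, a marker of GABAergic interneurons, was present at 2853 and 3174 CPM, so that the libraries hold RNA of more than mossy cells.

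Transcripts of 26 of these enzymes were less abundant in the Dorsal than in the Ventral libraries at an adjusted p below 0.05 in edgeR's quasi-likelihood test, none was more abundant, and 18 did not pass. The log2 fold change of Dorsal over Ventral was below 0 for 41 of the 44 members and its median was -0.52, while the median over all 16806 tested genes was -0.0044. Over all tested genes 14.6% were lower and 19% were higher by the same rule. When the log2 ratio of the group means, each raised by 1 CPM, also had to exceed 0.58 in size, 16 members were ventral-enriched and 0 dorsal-enriched, against 9.85% and 15.7% of all tested genes. No member higher in Dorsal reached even an unadjusted p of 0.05, a count of 0, and DESeq2 also called 0.

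In 19 members every Ventral library lay above every Dorsal library, and the opposite held for 0 members. Among all tested genes 8.36% had every Ventral library above every Dorsal library and 9.81% the reverse. Summed over the 44 members, the level was 4543 ± 210.1 CPM in the Dorsal group and 6904 ± 514 CPM in the Ventral group (SD, n = 5 each). No test of the list as a whole was made.

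The no-gene share moved with these counts. When it entered the fit as a covariate, 1 member, Mdh2, stayed ventral-enriched and 1 was lower in Dorsal at an adjusted p below 0.05, and the calls over all genes went from 1655 to 339 ventral-enriched and from 2636 to 834 dorsal-enriched. The members' median log2 fold change was -0.41 in that fit and 35 of the 44 values were below 0. Since the share does not overlap between the groups, it and the hippocampal part cannot be told apart. Once GC content and length were corrected for, 22 members were ventral-enriched and the median of the 44 was -0.61. Over all 16795 genes in that fit 2847 were ventral-enriched and 2095 dorsal-enriched, and the median of all genes moved to -0.16. The members' median minus that of all genes was -0.46 with the correction and -0.51 in the main fit.

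**Figure D1:**
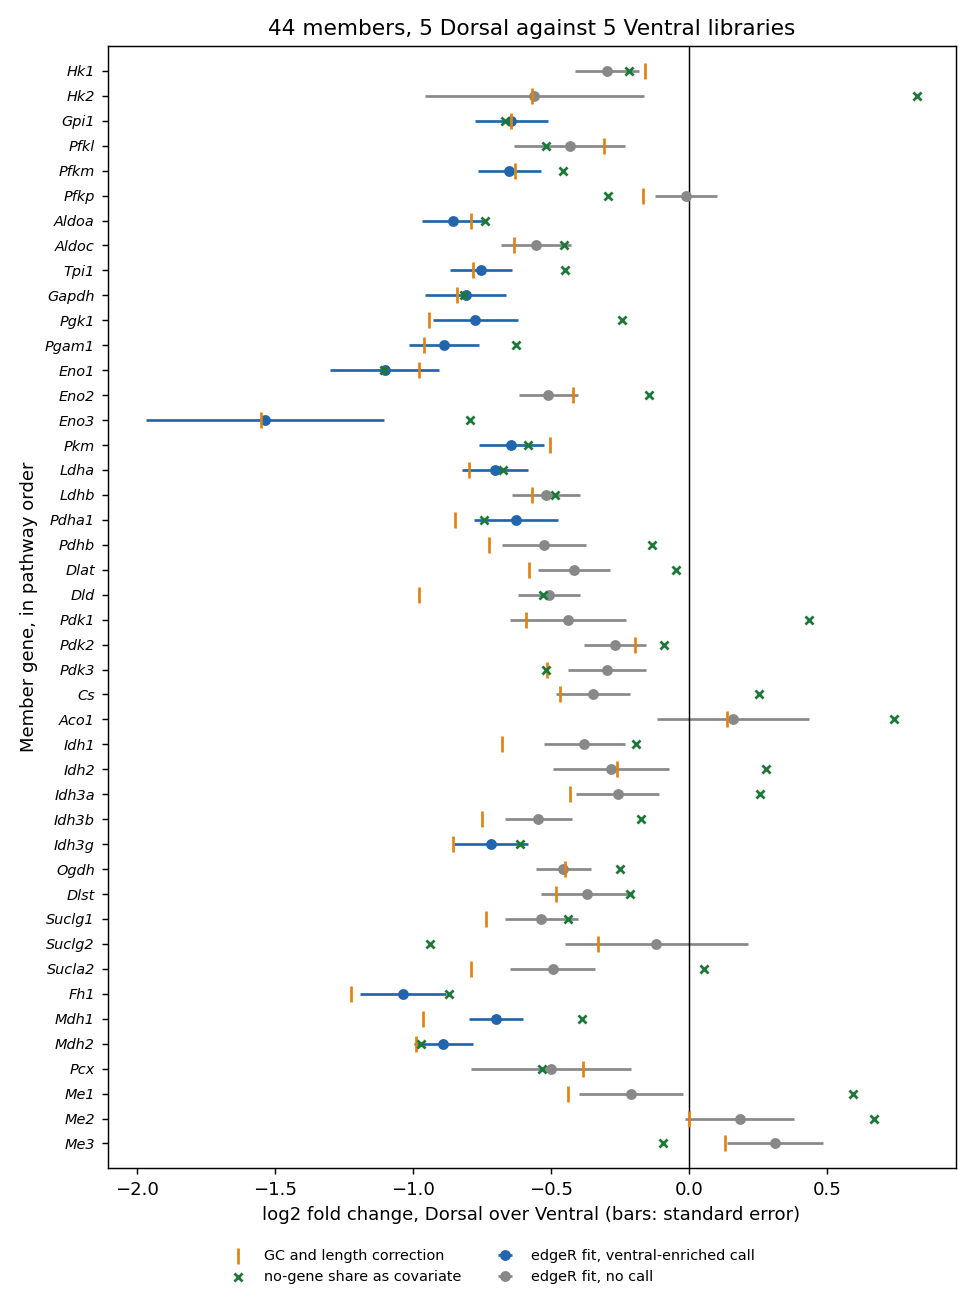
Log2 fold change of Dorsal over Ventral for the 44 members in pathway order, with the standard error as bars; blue points are the 16 ventral-enriched members and grey points the 28 without a call. Orange ticks give the fit corrected for GC content and length and green crosses the fit with the no-gene share as a covariate; 41 of the 44 points lie left of 0.

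The windows upstream of the transcription start are shown for members whose RefSeq table (GRCm38.p6) lists a single start that lies outside the annotated gene body, and which average at least 10 CPM in both groups. They are Fh1, Pgam1 and Pgk1, the 3 ventral-enriched members of this kind with the largest change, and Cs, which was not called and had the smallest change of all members of this kind. Each window holds the 250 bases before the start, read 5′ to 3′ on the gene's strand, and capitals mark matches on either strand to the hypoxia-response core ACGTG, the E-box CACGTG, which contains it, the GC box GGGCGG, the TATA box TATAAA, the letters TGCGCA from the NRF1 site, and TCAAGGTCA, bound by estrogen-related receptors.
Fh1: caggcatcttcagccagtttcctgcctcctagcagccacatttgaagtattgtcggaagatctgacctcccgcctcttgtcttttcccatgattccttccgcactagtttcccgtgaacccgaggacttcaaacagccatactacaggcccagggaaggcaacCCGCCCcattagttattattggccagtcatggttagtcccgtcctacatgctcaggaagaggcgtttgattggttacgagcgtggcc
Pgam1: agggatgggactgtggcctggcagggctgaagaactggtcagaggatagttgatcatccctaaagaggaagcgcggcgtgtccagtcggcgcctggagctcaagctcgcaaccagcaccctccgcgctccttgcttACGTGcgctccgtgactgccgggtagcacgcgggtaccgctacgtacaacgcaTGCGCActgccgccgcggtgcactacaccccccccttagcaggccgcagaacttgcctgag
Pgk1: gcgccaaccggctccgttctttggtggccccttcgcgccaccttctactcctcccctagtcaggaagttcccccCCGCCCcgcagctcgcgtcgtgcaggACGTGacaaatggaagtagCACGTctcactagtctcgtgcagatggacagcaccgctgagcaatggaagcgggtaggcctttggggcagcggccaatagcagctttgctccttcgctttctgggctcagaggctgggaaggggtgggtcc
Cs: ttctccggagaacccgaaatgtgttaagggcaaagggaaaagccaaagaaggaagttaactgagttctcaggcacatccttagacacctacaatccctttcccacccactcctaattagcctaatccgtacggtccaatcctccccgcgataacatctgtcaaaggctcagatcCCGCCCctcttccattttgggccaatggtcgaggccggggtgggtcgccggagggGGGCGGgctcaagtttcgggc

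The windows lie at chr1:175625636-175625885 on the minus strand for Fh1 (ENSMUSG00000026526), chr19:41911621-41911870 on the plus strand for Pgam1 (ENSMUSG00000011752), chrX:106186850-106187099 on the plus strand for Pgk1 (ENSMUSG00000062070) and chr10:128337477-128337726 on the plus strand for Cs (ENSMUSG00000005683), all in GRCm38. Pgk1 holds ACGTG, the core recognized by hypoxia-inducible factors, once on each strand, and Pgam1 holds it once. Fh1, Cs and Pgk1 hold the GC box letters GGGCGG on at least 1 strand, and Pgam1 holds TGCGCA. Fh1 and Cs hold none of ACGTG. Taking the first listed window of each gene, 42 of the 44 members had one, and ACGTG was found in 12 of 42 (28.6%) against 16.6% of 27025 genes in the table. It was found in 6 of the 16 ventral-enriched members and 6 of the 26 others. CACGTG, the E-box, was found in 4 of 42 and in 6.05% of all, TGCGCA, part of the site of nuclear respiratory factor NRF1, in 3 of 42 and 6.66%, and GGGCGG in 24 of 42 (57.1%) and 32.9%. GGGCGG was present in 8 of the 16 ventral-enriched members and 16 of the 26 others. The letters TCAAGGTCA, bound by estrogen-related receptors, were in 0 of 42 and 0.366% of all windows, and TATAAA in 1 of 42, Eno2, and 13% of all. No comparison of these shares was tested. The 27025 genes were not limited to the 16806 that passed the expression filter, as all 44 members did, and shares among those 16806 were not taken.

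Glycolysis had the median log2 fold change farthest from 0 of the 4 branches, and no difference between branches was tested. All 16 of its genes had a log2 fold change below 0, with a median of -0.65, 12 were lower in Dorsal at an adjusted p below 0.05 and 10 of these were ventral-enriched. The summed level of the 16 genes was 1884, 1891, 2131, 2249 and 2070.5 CPM in Dorsal 1 to 5, and 3190.3, 3583, 2672, 3448 and 3676 CPM in Ventral 1 to 5. The groups did not overlap, and Ventral 3, the lowest Ventral library, was the lowest of its group in 11 of the 16 genes. All 10 genes from aldolase to pyruvate kinase were lower in Dorsal and 8 of them were ventral-enriched, with a median of -0.79. Of the 6 genes of the first 3 steps, 2 were lower and both were ventral-enriched, with a median of -0.50, and the difference between these parts of the chain was not tested.

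Hexokinase, which traps glucose in the cell as its phosphate, did not pass the test. Hk1, the main hexokinase of brain, measured 57.2, 52.3, 58.6, 62.0 and 62.5 CPM in Dorsal 1 to 5 and 69.2, 86.8, 66.6, 72.9 and 65.6 CPM in Ventral 1 to 5. Its groups did not overlap, but the log2 fold change of -0.30 (SE 0.11) had an adjusted p of 0.0579 in edgeR's test. Hk2, the insulin- and hypoxia-responsive hexokinase, was low, at 1.04 to 3.86 CPM in Dorsal and 1.94 to 6.82 CPM in Ventral libraries, and the groups overlapped.

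Gpi1, the isomerase that turns glucose phosphate into fructose phosphate, measured 81.9, 113, 115, 117 and 109 CPM in Dorsal 1 to 5 and 149, 189, 131, 179 and 192 CPM in Ventral 1 to 5, a log2 fold change of -0.64 (SE 0.13, edgeR adjusted p = 0.00286). Dorsal 1 stood apart below the rest of its group, and without it the log2 fold change was -0.56 and the gene missed the threshold on size.

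Phosphofructokinase commits sugar to glycolysis, and 1 of its 3 genes passed the test. Pfkm (ENSMUSG00000033065), the muscle-type subunit, measured 47.4, 57.2, 48.5, 55.9 and 50.4 CPM in Dorsal 1 to 5 and 82.8, 86.3, 67.0, 84.2 and 87.2 CPM in Ventral 1 to 5, without overlap, with a log2 fold change of -0.65 (SE 0.11, edgeR adjusted p = 0.00106). Pfkp, the platelet-type subunit, measured 58.2, 77.9, 70.6, 58.0 and 65.8 CPM in Dorsal 1 to 5 and between 66.0 and 67.9 CPM in the Ventral libraries. Its log2 fold change of -0.01 (SE 0.11) was the closest to 0 of all members and changed sign between scalings, as with DESeq2's size factors (0.016). Pfkl, the liver-type subunit, ranged from 22.3 CPM in Dorsal 1 to 54.1 CPM in Dorsal 4 and from 42.8 to 68.6 CPM in Ventral libraries, and did not pass (adjusted p = 0.11).

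Aldolase cleaves the sugar into triose phosphates. Aldoa (ENSMUSG00000030695), the most abundant member per length at 741 ± 112 TPM (counts per exonic length, scaled to a common total; SD, n = 5) in Dorsal and 1231 ± 190.4 TPM in Ventral libraries, measured 463, 509, 580.5, 639 and 576 CPM in Dorsal 1 to 5 and 973, 1074, 808, 1036 and 1123 CPM in Ventral 1 to 5. The lowest Ventral library exceeded the highest Dorsal library, and the log2 fold change was -0.86 (SE 0.11, edgeR adjusted p = 0.000139). Aldoc, the aldolase of astrocytes and of some neurons, measured 138, 108, 132, 154 and 135 CPM in Dorsal 1 to 5 and 156, 179, 208, 198 and 238 CPM in Ventral 1 to 5, with a log2 fold change of -0.56 (SE 0.13, edgeR adjusted p = 0.00532) that passed the test and not the threshold on size.

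Tpi1, which interconverts the triose phosphates, measured 162, 131, 147, 151 and 140.4 CPM in Dorsal 1 to 5 and 239.6, 264, 190.1, 259 and 278 CPM in Ventral 1 to 5, with a log2 fold change of -0.75 (SE 0.11, edgeR adjusted p = 0.000373). Gapdh, the dehydrogenase that produces the NADH of glycolysis, measured 181, 198, 282, 261 and 252 CPM in Dorsal 1 to 5 and 408, 456, 291, 456 and 450.2 CPM in Ventral 1 to 5. Its log2 fold change was -0.81 (SE 0.15, edgeR adjusted p = 0.00131), and Ventral 3 came within reach of the highest Dorsal library. Gapdh has 71 annotated near-identical copies in the mouse genome, whose counts made up 26.9 CPM in the Dorsal and 47.6 CPM in the Ventral group, so its counts are uncertain.

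Pgk1, the first ATP-producing enzyme of the chain, was the ventral-enriched glycolytic gene whose groups overlapped. It measured 54.4, 32.5, 33.0, 35.2 and 32.7 CPM in Dorsal 1 to 5 and 64.3, 60.2, 52.9, 68.6 and 70.0 CPM in Ventral 1 to 5, with Dorsal 1 high, and its log2 fold change was -0.77 (SE 0.15, edgeR adjusted p = 0.00232). Pgam1, the mutase of the next step, measured 35.6, 36.1, 28.1, 34.2 and 27.7 CPM in Dorsal 1 to 5 and 53.8, 65.9, 54.4, 60.0 and 65.2 CPM in Ventral 1 to 5. The groups were far apart relative to their spread, with a log2 fold change of -0.89 (SE 0.13, edgeR adjusted p = 0.000292).

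Enolase makes phosphoenolpyruvate, and its 3 genes differ by tissue, with Eno2 the neuronal form, Eno1 the ubiquitous form of glia and proliferating cells and Eno3 the muscle form. Eno1 (ENSMUSG00000063524) measured 26.9, 51.1, 56.8, 57.6 and 54.5 CPM in Dorsal 1 to 5 and 108, 119, 66.2, 126 and 115 CPM in Ventral 1 to 5, with a log2 fold change of -1.10 (SE 0.20, edgeR adjusted p = 0.00119). Dorsal 1 and Ventral 3 were both the lowest of their groups by a wide gap. Eno2 measured 418, 324, 354, 381 and 344 CPM in Dorsal 1 to 5 and 518, 569.5, 416, 508 and 579 CPM in Ventral 1 to 5. Its groups met at Dorsal 1 and Ventral 3, and its log2 fold change was -0.51 (SE 0.11, edgeR adjusted p = 0.00312). Eno3 had the log2 fold change farthest from 0 among the members, -1.54 (SE 0.43, edgeR adjusted p = 0.0143), at a level of 0.409 to 1.69 CPM in Dorsal and 1.76 to 4.34 CPM in Ventral libraries. It rested on 6 to 92 counts per library, and without Ventral 5 its adjusted p was 0.0513.

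Pkm, whose product pyruvate kinase ends the chain, measured 134, 164, 169, 184 and 168 CPM in Dorsal 1 to 5 and 234, 292, 208, 266 and 282 CPM in Ventral 1 to 5. The groups did not overlap and the log2 fold change was -0.64 (SE 0.12, edgeR adjusted p = 0.00131), but the gene missed the threshold on size without Dorsal 1 (-0.58) and with the correction for GC content and length (-0.50). The gene-level counts do not separate its muscle-type splice forms.

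**Figure D2:**
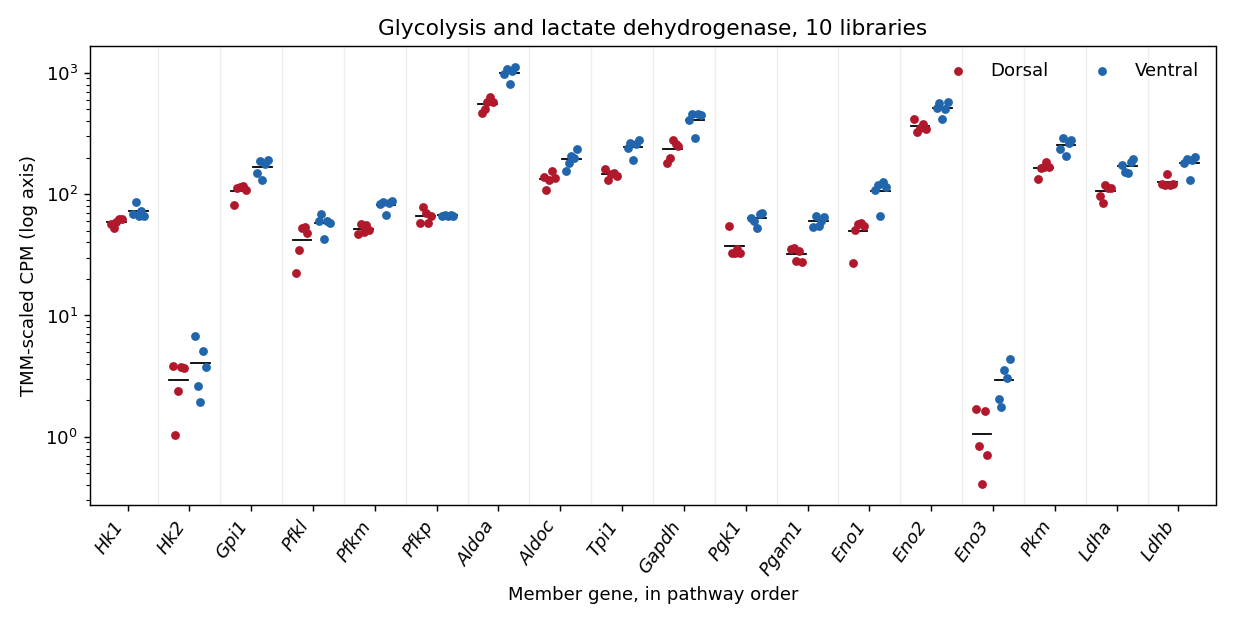
TMM-scaled CPM (log axis) of the 16 glycolysis genes and of Ldha and Ldhb in the 5 Dorsal (red) and 5 Ventral (blue) libraries, with the group means as black lines; genes are in pathway order. From Aldoa to Pkm the blue points lie above the red ones with few overlaps, while Pfkp lies at one level in both groups.

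Both lactate dehydrogenase genes were lower in Dorsal. Ldha, the subunit that favours lactate formation, measured 96.9, 84.9, 119, 113 and 113 CPM in Dorsal 1 to 5 and 173, 153, 149, 184 and 197 CPM in Ventral 1 to 5, with a log2 fold change of -0.70 (SE 0.12, edgeR adjusted p = 0.000895). Ldhb, the subunit common in neurons and heart, measured 122, 120.1, 147, 118 and 120.4 CPM in Dorsal 1 to 5 and 181, 194, 131, 190.2 and 202 CPM in Ventral 1 to 5. Dorsal 3 was high and Ventral 3 low, so that the groups overlapped, and the log2 fold change was -0.52 (SE 0.12, edgeR adjusted p = 0.00629).

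All 4 subunits of the pyruvate dehydrogenase complex among the members passed the test, and 1 of them was ventral-enriched. Pdha1, the catalytic E1 alpha subunit, which carries the phosphorylation sites, measured 118, 124, 82.8, 94.4 and 88.8 CPM in Dorsal 1 to 5 and 138, 128, 209.6, 156 and 154 CPM in Ventral 1 to 5. Its log2 fold change was -0.63 (SE 0.15, edgeR adjusted p = 0.00697), and it missed the threshold on size without Ventral 3 (-0.51), Dorsal 3 (-0.55) or Dorsal 5 (-0.57). Ventral 3, low for most glycolytic genes, was the highest library for Pdha1 and for Dld. Pdhb, the E1 beta subunit, had a log2 fold change of -0.53 (SE 0.15, edgeR adjusted p = 0.018), Dlat, the E2 core, of -0.42 (SE 0.13, edgeR adjusted p = 0.0252), and Dld, the E3 subunit shared with other 2-oxoacid dehydrogenases, of -0.51 (SE 0.11, edgeR adjusted p = 0.00453). Dld measured 116 to 148 CPM in Dorsal and 160.1 to 224 CPM in Ventral libraries without overlap, while the values of Pdhb and Dlat overlapped.

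The kinases Pdk1, Pdk2 and Pdk3, which inactivate the complex by phosphorylating Pdha1, did not pass the test. Their log2 fold changes were -0.44, -0.27 and -0.30, with adjusted p-values of 0.12, 0.0799 and 0.119 in edgeR's test, and their groups overlapped. Per length Pdk2 was the most abundant of them, with 107 ± 14.8 TPM over Dorsal and 118 ± 18.2 TPM over Ventral libraries (SD, n = 5).

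Of the 15 members listed under the TCA cycle, 14 had a log2 fold change below 0, with a median of -0.46. At an adjusted p below 0.05, 8 were lower in Dorsal, and 4 were ventral-enriched. These counts and the sums below include the cytosolic forms Aco1, Idh1 and Mdh1. Mdh1, which was ventral-enriched, averaged 413 CPM over the Dorsal and 670 CPM over the Ventral libraries. The summed level of the 15 genes was 1791, 1424, 1345, 1482 and 1416 CPM in Dorsal 1 to 5 and 2293, 2305, 2011, 2233 and 2208 CPM in Ventral 1 to 5. The groups did not overlap, and Dorsal 1, which had the lowest sum for glycolysis, had the highest of its group here and was the highest Dorsal library in 9 of the 15 genes.

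**Figure D3:**
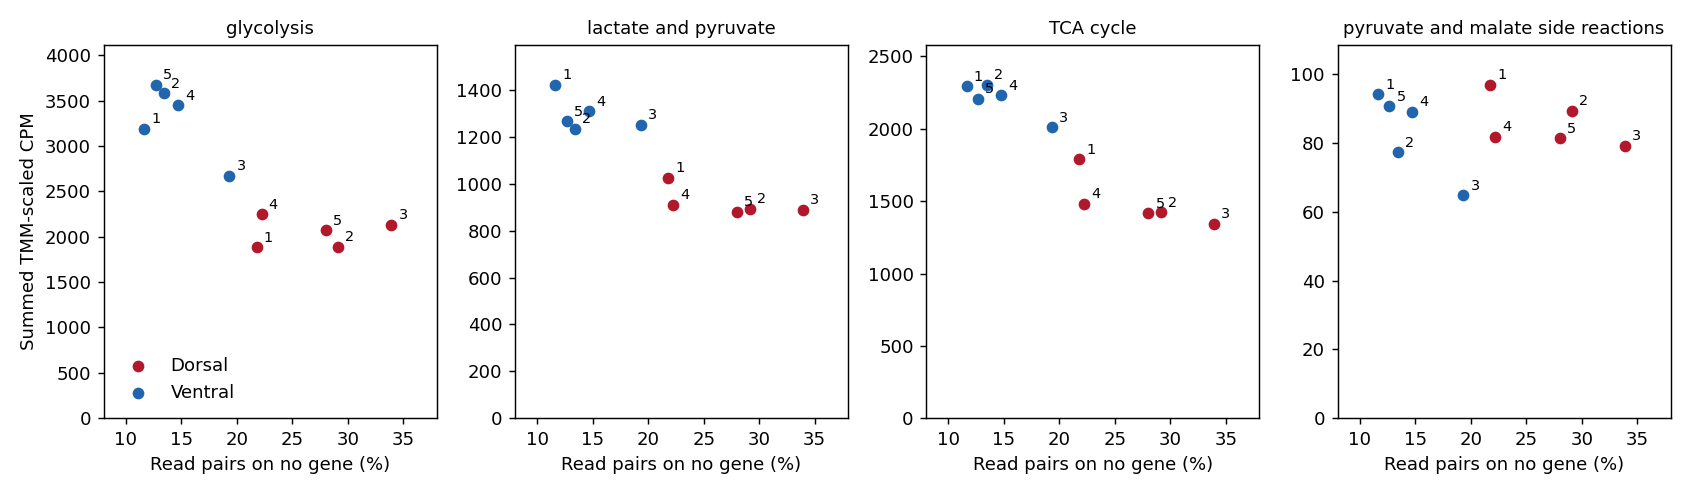
Summed TMM-scaled CPM of each branch (axes from 0) against the share of read pairs on no gene, with 5 Dorsal (red) and 5 Ventral (blue) libraries numbered by replicate. The sums of glycolysis, lactate and pyruvate, and TCA genes do not overlap between groups, those of the side reactions do, and the no-gene share does not overlap either.

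Differences between steps of the cycle were not tested. Cs, citrate synthase, which joins acetyl-CoA to oxaloacetate, measured 169, 123, 121, 144 and 127 CPM in Dorsal 1 to 5 and 202, 179.6, 126, 179.9 and 179 CPM in Ventral 1 to 5, and did not pass (log2 fold change -0.35, SE 0.13, edgeR adjusted p = 0.059). Aco1, a cytosolic aconitase that doubles as an iron-responsive RNA-binding protein, had a log2 fold change of 0.16 (SE 0.28) at 4.47 to 10.6 CPM over all libraries. The NADP-dependent isocitrate dehydrogenases Idh1 (-0.38, edgeR adjusted p = 0.059) and Idh2 (-0.28, edgeR adjusted p = 0.311), which supply NADPH, did not pass either.

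The NAD-dependent isocitrate dehydrogenase of the cycle is built from the products of 3 genes. Idh3g, a regulatory subunit, was ventral-enriched at 73.1, 51.6, 76.0, 64.2 and 68.7 CPM in Dorsal 1 to 5 and 106, 100.3, 94.1, 109 and 135 CPM in Ventral 1 to 5, with a log2 fold change of -0.72 (SE 0.13, edgeR adjusted p = 0.00148) and no overlap. Idh3b passed the test at -0.55 (SE 0.12, edgeR adjusted p = 0.00458). Idh3a, the catalytic subunit, ranged from 141 to 255 CPM in Dorsal and from 179.8 to 276 CPM in Ventral libraries and did not pass (-0.26, edgeR adjusted p = 0.193).

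Ogdh, the E1 subunit of the 2-oxoglutarate dehydrogenase complex, varied little within groups, at 93.1 to 111 CPM in Dorsal and 131 to 159.8 CPM in Ventral libraries, and its log2 fold change was -0.46 (SE 0.10, edgeR adjusted p = 0.00401). Dlst, the E2 subunit, overlapped between the groups (-0.37, edgeR adjusted p = 0.0996). Of the succinyl-CoA synthetase subunits, Suclg1 (-0.54, edgeR adjusted p = 0.00778) and the ATP-forming Sucla2 (-0.49, edgeR adjusted p = 0.024) passed the test with overlapping groups. The GTP-forming Suclg2 was low, at 1.41 to 4.63 CPM, with a log2 fold change of -0.12 (SE 0.33).

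Among the TCA genes, the log2 fold changes of Fh1 and Mdh2 lay farthest from 0. Fh1, fumarase, measured 27.6, 24.0, 16.0, 19.9 and 19.3 CPM in Dorsal 1 to 5 and 41.4, 37.7, 50.5, 40.7 and 46.9 CPM in Ventral 1 to 5, a log2 fold change of -1.04 (SE 0.16, edgeR adjusted p = 0.000402). Mdh2 (ENSMUSG00000019179), the mitochondrial malate dehydrogenase, measured 132, 155, 157, 141 and 144 CPM in Dorsal 1 to 5 and 250.2, 269.8, 226, 316 and 289.9 CPM in Ventral 1 to 5, a log2 fold change of -0.89 (SE 0.11, edgeR adjusted p = 8.32e-05). Neither overlapped, and the Mdh2 value was -0.97 (edgeR adjusted p = 0.0171) with the no-gene share as a covariate. Mdh1, the cytosolic form and the second most abundant member per length with 626 ± 91.1 TPM over Dorsal and 932 ± 78.4 TPM over Ventral libraries (SD, n = 5), measured 508, 408, 359.8, 403 and 386 CPM in Dorsal 1 to 5 and 704, 695, 642, 652 and 659 CPM in Ventral 1 to 5. Its log2 fold change was -0.70 (SE 0.10, edgeR adjusted p = 0.000229).

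The 4 genes of pyruvate and malate side reactions showed no call. Pcx, the pyruvate carboxylase that refills the cycle and is known from astrocytes, ranged from 2.26 to 4.43 CPM in Dorsal and from 2.87 to 6.77 CPM in Ventral libraries. The malic enzymes, which convert malate to pyruvate, had log2 fold changes of -0.21 for the cytosolic Me1, 0.18 for the mitochondrial Me2 and 0.31 for the mitochondrial Me3, with adjusted p-values of 0.412, 0.498 and 0.18 in edgeR's test. Their values overlapped. After correction for GC content and length Me2 was at -0.00069, in a fit where the median of all genes was -0.16.

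**Figure D4:**
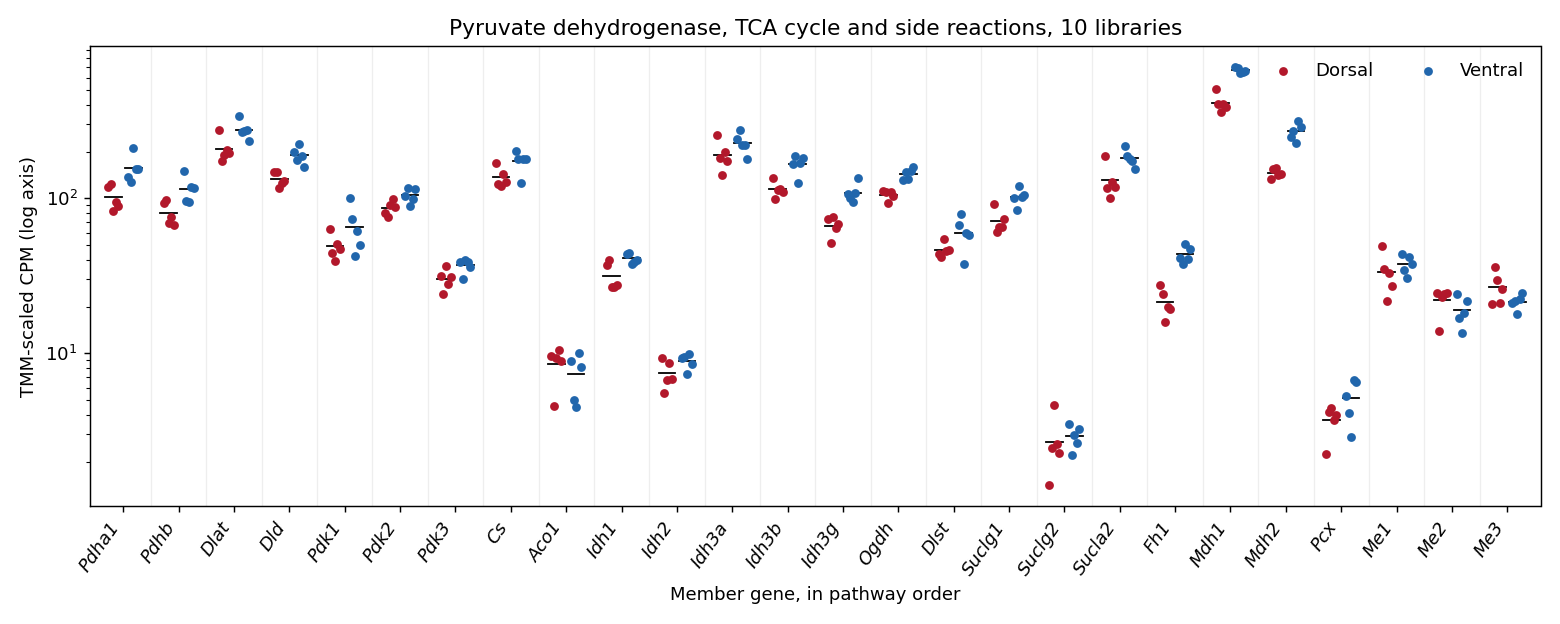
TMM-scaled CPM (log axis) of the pyruvate dehydrogenase, TCA cycle and side reaction genes in the 5 Dorsal (red) and 5 Ventral (blue) libraries, with the group means as black lines. Fh1, Mdh1, Mdh2 and Idh3g show separated groups, and Pdk1 to Pdk3, Aco1 and the malic enzymes show overlapping ones.

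Ratios between isoenzymes of 1 step, taken per exonic length, do not depend on how a library was scaled. Of 10 ratios compared, 0 passed at an adjusted p below 0.05 (exact permutation test of mean log2 ratios, two-sided, Benjamini-Hochberg over the 10), and 2 had an unadjusted p below 0.05. The Pfkp to Pfkm ratio was 0.306, 0.339, 0.363, 0.259 and 0.326 in Dorsal 1 to 5 and 0.200, 0.196, 0.247, 0.198 and 0.189 in Ventral 1 to 5, without overlap (exact p = 0.00794, adjusted p = 0.0794). The exact p is the smallest that 5 against 5 libraries can give, and a single ratio at it cannot pass after adjustment over 10. The Eno1 to Eno2 ratio averaged 0.121 ± 0.0363 over Dorsal and 0.179 ± 0.0277 over Ventral libraries (SD, n = 5; exact permutation p = 0.0159, adjusted p = 0.0794). Dorsal 1, at 0.056, lay far below the other Dorsal libraries, which reached from 0.132 to 0.140.

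The Ldhb to Ldha ratio averaged 2.54 ± 0.316 over Dorsal and 2.21 ± 0.291 over Ventral libraries (SD, n = 5; exact permutation p = 0.0952, adjusted p = 0.238). The Aldoc to Aldoa ratio was 0.216 ± 0.029 and 0.176 ± 0.0348 (SD, n = 5; exact permutation p = 0.0794, adjusted p = 0.238). For the other 6 ratios, among them Hk2 to Hk1, Mdh2 to Mdh1 and Pdk2 to Pdk3, the unadjusted p ranged from 0.294 to 0.929.

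**Figure D5:**
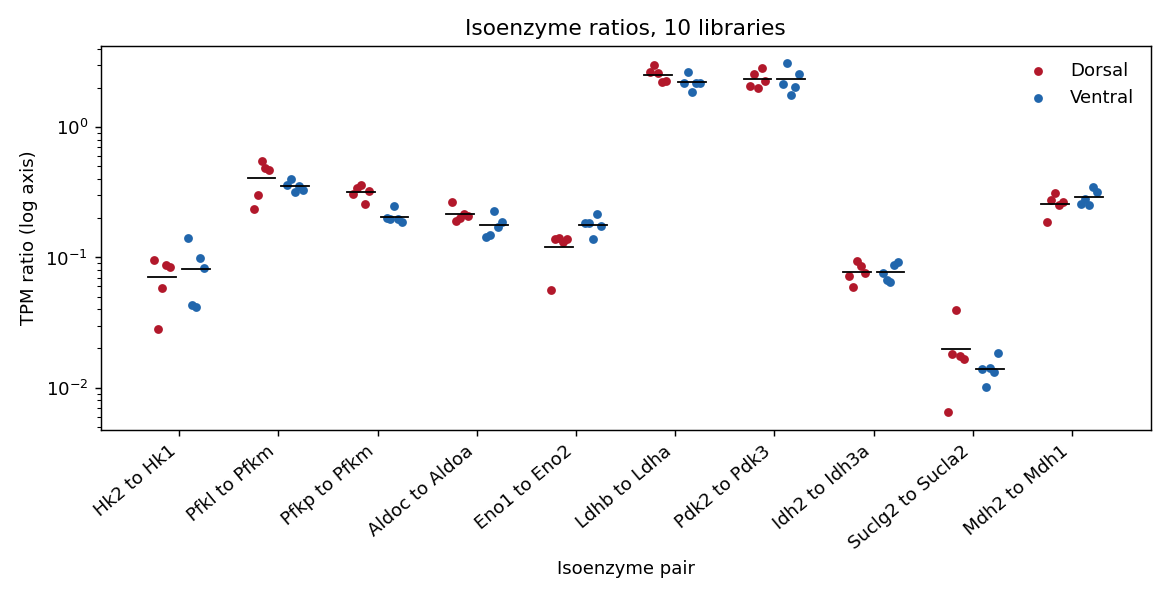
TPM ratios (log axis) of 10 isoenzyme pairs in the 5 Dorsal (red) and 5 Ventral (blue) libraries, with group means as black lines. The Pfkp to Pfkm ratios are separate, at 0.259 to 0.363 in Dorsal and 0.189 to 0.247 in Ventral libraries, and the other 9 pairs overlap.

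Genes next to these pathways were followed as 5 lists with 62 genes, of which 49 were expressed enough to test. Among them 10 were lower in Dorsal and 2 higher at an adjusted p below 0.05, against 14.6% and 19% of all tested genes. By the rule that also sets a size, 8 were ventral-enriched and 1 dorsal-enriched, against 9.85% and 15.7%, and the median of their log2 fold changes was -0.15. Of 13 tested enzymes of the same steps that are not members, 3 were ventral-enriched. Sdhb, the iron-sulfur subunit of succinate dehydrogenase, measured 47.2 to 58.8 CPM in Dorsal and 90.1 to 107 CPM in Ventral libraries (log2 fold change -0.82, SE 0.11, edgeR adjusted p = 0.000146). Sdha, its catalytic subunit, passed the test alone (-0.43, edgeR adjusted p = 0.00302). Hkdc1, a hexokinase relative, and Ldhd, which handles D-lactate, were low but separated, at 0.24 to 0.409 against 1.67 to 3.29 CPM (-2.92, edgeR adjusted p = 5.61e-05) and at 0.78 to 2.39 against 4.39 to 8.38 CPM (-2.14, edgeR adjusted p = 0.000432). Hkdc1 rested on 3 to 58 counts per library, so its Dorsal level lay near the smallest regarded as detectable and its fold change is uncertain. Ldhd shares 42.2% of its exonic bases with other genes, so its counts are uncertain too.

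Transporters had 1 call among 8 tested genes. Over all tested genes 15.7% were dorsal-enriched and 9.85% ventral-enriched. Slc16a7, the monocarboxylate transporter MCT2 through which neurons take up lactate, was dorsal-enriched at 141, 93.8, 127, 136 and 139 CPM in Dorsal 1 to 5 and 103, 77.2, 52.2, 75.0 and 55.6 CPM in Ventral 1 to 5 (log2 fold change 0.80, SE 0.18, edgeR adjusted p = 0.00419). The glucose transporters Slc2a1 (0.04) and Slc2a3 (-0.08) did not pass, and Mpc2, of the mitochondrial pyruvate carrier, passed the test alone (-0.53, edgeR adjusted p = 0.00303). Of 11 tested regulators, Tigar, a fructose bisphosphatase that lowers glycolytic flux (-0.91, edgeR adjusted p = 0.0143), and Pdhx, the E3-binding subunit of pyruvate dehydrogenase (-0.62, edgeR adjusted p = 0.00476), were ventral-enriched. Tigar overlapped, and Ventral 3, at 105 CPM, was its highest library. Pfkfb3, which makes the activator of phosphofructokinase, was higher in Dorsal by the test alone (0.55, edgeR adjusted p = 0.0118).

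Against 9.85% of all tested genes, 2 of 10 tested shuttle, gluconeogenic and exit enzymes were ventral-enriched. They were the aspartate aminotransferases Got1 (-0.61, edgeR adjusted p = 0.00309) and Got2 (-0.64, edgeR adjusted p = 0.0026). Together with Mdh1 and Mdh2 they form the enzymes of the malate-aspartate shuttle, which carries NADH equivalents into mitochondria, and all 4 were ventral-enriched, a grouping made after their values were seen. Of the 7 pentose phosphate genes, Taldo1, transaldolase, was ventral-enriched (-0.65, edgeR adjusted p = 0.0101) and 6 did not pass.

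Markers of other cells moved with the groups as well. The summed level of 12 astrocyte markers was 2416 to 2979 CPM in Dorsal and 1128 to 1779 CPM in Ventral libraries, and that of 10 oligodendrocyte markers 2800.0 to 3103 CPM and 986 to 1808 CPM (exact permutation p = 0.00794 for each, adjusted p = 0.0278 over 7 lists). The 15 interneuron markers summed to 4178 to 5088 CPM in Dorsal and 4951 to 6046 CPM in Ventral libraries (exact permutation p = 0.0159, adjusted p = 0.037). Of these lists, 4, 6 and 0 genes were dorsal-enriched and 1, 0 and 4 ventral-enriched, respectively. Over all tested genes the shares were 15.7% dorsal-enriched and 9.85% ventral-enriched. The 8 granule cell markers summed to 882 to 1059.7 CPM and 795 to 1025 CPM, and the 10 mossy cell markers to 1864 to 2098 CPM and 1949.6 to 2148 CPM, with adjusted p-values of 0.181 and 0.189 in the exact permutation test. Single genes of both lists still differed. Of the granule cell markers 2 were dorsal-enriched and 0 ventral-enriched. Of 9 tested mossy cell markers, 3 were dorsal-enriched (Gria2, Gria3 and Sv2c) and 3 ventral-enriched (Calb2, Satb1 and Ap2s1). Microglial markers summed to 28 to 43.2 CPM and 20.1 to 42.1 CPM and endothelial markers to 12.9 to 54.3 CPM and 10.4 to 57.8 CPM. No list had a marker at 0 in every library. The part of these cells in the enzyme differences was not tested.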

How the data were processed

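Translating RNA of MC-TRAP mouse hippocampus was sequenced in 5 Dorsal and 5 Ventral libraries, grouped by their labels. The authors purified tagged ribosomes, amplified the RNA (Ovation), prepared TruSeq v2 libraries, a kit that does not mark strand, read 50 bp paired ends, aligned with STAR 2.5.2b to GRCm38 and counted with HTSeq 0.7.2 (versions from the submitters' processing notes). Each deposited file gives whole-number counts per Ensembl identifier, which the authors neither normalized nor filtered. The annotation release and strand setting of the counting are not given in the sources used here, so genes that overlap others are uncertain. Pdha1 shares 16.1% of its exonic bases with Map3k15, Pkm 15.3% with Gm49759, Gpi1 11.5% with Gm26762 and Pfkm 10.7% with Gm26513 and Senp1. Copies at 95% identity or more cover most of the transcript of Gapdh (88%), Eno1, Ldhb, Pdhb, Pgk1, Pkm, Me1, Gpi1 and Ldha, whose counts are uncertain too.

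Symbols, coordinates and exonic lengths came from GENCODE M21 (54809 of 54838 identifiers matched). Genes above 1 CPM in 2 or more libraries were tested with edgeR 4.0.16 (R 4.3.3; TMM, quasi-likelihood test, Benjamini-Hochberg over 16806 genes). Fold changes are Dorsal over Ventral and SE is their size divided by the square root of F. A call needs an adjusted p under 0.05 and, between group means raised by 1 CPM, a log2 ratio over 0.58 in size. Ratios and library measures used two-sided exact permutation tests (SciPy 1.17.1). Promoters came from RefSeq GRCm38.p6. The edgeR fit was tested on simulated data. The alternatives were other size factors, filters, DESeq2 1.42.0, a replicate block, a GC and length correction (mgcv 1.9.3), the no-gene share as covariate, gene subsets and each library left out; the dispersions of edgeR 3 were added after seeing the data.

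Members, lists and tests were chosen with earlier results of these data known. The text names all members, the neighbours that were called and at most 6 others. Libraries are pools of mice, so p-values measure the spread between pools, and the mice gave tissue to both groups. Chi-square per degree of freedom between the counts of any pair of libraries in a group was at least 4.7, more than counting error alone gives. None was therefore the same library read again, but separate libraries from the same pool would pass this check too. Dorsal 4 and 5 were closest (4.70), followed by Dorsal 3 and 5 (8.83), and the other pairs reached from 15.8 to 49.5.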

Additional observations from a re-analysis of the deposited data

Results flagged for a closer look

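In groups of 5 libraries, 108 sets of values (44 members and 10 ratios in each group) were examined for a single library whose gap to the next exceeded 0.71 of the range (Dixon), and 10 were found, where chance gives about 1 in 20. Dorsal 1 was the library in 4 of them. It was low for Gpi1 (81.9 CPM, others 109 to 117), for Eno1 (26.9 CPM, others 51.1 to 57.6) and for the Eno1 to Eno2 ratio (0.0564, others 0.132 to 0.140), and high for Pgk1 (54.4 CPM, others 32.5 to 35.2). Ventral 3 was the library in 3, low for Pfkm (67.0 CPM, others 82.8 to 87.2) and Gapdh (290.5 CPM, others 408 to 456) and high for the Pfkp to Pfkm ratio (0.247, others 0.189 to 0.200). Dorsal 2 was low for Aco1 (4.55 CPM, others 8.88 to 10.6) and Me2 (13.97 CPM, others 23.1 to 24.5), and Dorsal 3 was high for Ldhb (147 CPM, others 118 to 122).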

How the results depend on the processing

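The counts of ventral-enriched members (16) and of members lower in Dorsal (26) stayed within 1.5 times in 23 of 24 alternatives, and those of dorsal-enriched and higher members stayed at 0 in all 24. The exception was the no-gene share as a covariate, with 1 and 1; the share does not overlap between the groups, and the cause was not tested. In that fit the log2 fold change had the opposite sign for Hk2 (0.83), Pdk1 (0.43), Cs (0.25), Idh2 (0.28), Idh3a (0.26), Sucla2 (0.056), Me1 (0.60) and Me3 (-0.095). Leaving out 1 library gave 15 to 18 ventral-enriched members, 23 to 31 lower members and a median from -0.56 to -0.48. Of the 16 calls, 12 held in each of the 23 other alternatives, and Gpi1, Eno3, Pkm and Pdha1 did not. Correcting for GC content and length added 7 calls and removed Pkm, while the ventral-enriched calls over all genes went from 1655 to 2847. Me2 became -0.00069 in that fit, where the median of all genes was -0.16. The median over all genes shifted by more than 0.1 in that fit and without a filter on low counts (0.11), where the members' median was -0.52.

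Pfkp turned positive with DESeq2's size factors (0.016), upper-quartile factors (0.028), total counts (0.0042), the stricter filter (0.011), DESeq2's test (0.014) and protein-coding genes alone (0.015), and ranged from -0.077 to 0.039 with 1 library left out. On leaving out 1 library, Suclg2 ranged from -0.40 to 0.0084, and the log2 ratio differences of Hk2 to Hk1 from -0.37 to 0.13, Pdk2 to Pdk3 from -0.063 to 0.14, Idh2 to Idh3a from -0.085 to 0.078 and Suclg2 to Sucla2 from -0.0078 to 0.65. The count of ratios that passed was 0 in each of 12 alternatives, which says nothing about their stability, since the smallest exact p of these designs cannot pass for a single ratio after adjustment. Dorsal and Ventral libraries share animals, but the labels do not tie replicate numbers to pools, and the numbers were not taken as pairs, since same-numbered libraries deviated together with r of -0.03 to 0.07, and 3 of the 10 libraries correlated best with their own number. The replicate block gave 16 ventral-enriched and 28 lower members. Together with the GC and length correction it gave 22 and 32, and 2911 of all genes were ventral-enriched. Over 5 pairs the smallest exact p for a ratio is 0.0625. Depth limits Eno3, Hk2, Suclg2 and Pcx, at under 7 CPM.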
